A study of Equus caballus with 4 samples.

Results

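The 10 genes described here are genes of striated muscle that are linked to serum response factor or to the sensing of stretch, measured in differentiating equine satellite cells incubated with gamma-oryzanol (GO). The 10 genes were *ABRA*, *ITGB1BP2*, *NEXN*, *ANKRD1*, *ANKRD2*, *CSRP3*, *FHL1*, *SRF*, *SMPX* and *XIRP1*, and a probe was counted as theirs where the gene name on the array equalled the symbol. That rule gave 27 probes for 7 of the 10 genes, among 43603 noncontrol probes with 14595 symbols. *ANKRD2*, *FHL1* and *SRF* had no probe under that name, and 1 probe for each was added from the written description on the array, which brought the total to 30 probes. The 10 genes were chosen by their GO over control log2 ratios on these same arrays, so their ratios and counts are given as a description and no test of them is reported.

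Satellite cells are the stem cells of skeletal muscle, and on leaving the cell cycle they fuse into multinucleate myotubes. The cells came from the *semitendinosus* muscle of healthy colts, and the methods state that 1 line was chosen for its viability and fusion among those isolated. GO at 125 nM, a mixture of ferulic acid esters from rice bran oil, was added after day 2 of differentiation and left for 24 h, so that RNA was taken on day 3. Control cells received the vehicle, dimethyl sulfoxide, at 0.04 μl/ml, which the GO-treated cells received as well. On each of 4 two-color arrays the GO-treated cells were labelled with Cy5 and the control cells with Cy3. The labels call the arrays biological replicates, but the sources used here do not settle whether they stand for separate animals or separate cultures, so the spread between arrays may be technical. Since no array had its dyes swapped, dye and GO effects cannot be told apart for any gene. With so few arrays, their number sets how precise the values are.

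Serum response factor (SRF) is a transcription factor that works with cofactors of the myocardin family. As actin is assembled into filaments, some of these cofactors are freed from actin monomers, enter the nucleus and switch on actin, cytoskeletal and muscle genes. ABRA, also called STARS, binds actin at the sarcomere and promotes this route, and several proteins of the Z-disc, where neighboring sarcomeres are joined, take part in the response of muscle to load.

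The sequences of the probes show which measurements are separate and which repeat each other. Each probe has 60 bases, and positions are those of the array files on EquCab1. The pair of *ANKRD1* probes is shown because both were bright and gave nearly the same ratio from windows that share only 16 bases, here in capitals:
*ANKRD1* first probe, chr1:37006237-37006296, plus strand: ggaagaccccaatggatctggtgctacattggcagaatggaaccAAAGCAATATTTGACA
*ANKRD1* next probe, chr1:37006281-37006340, plus strand: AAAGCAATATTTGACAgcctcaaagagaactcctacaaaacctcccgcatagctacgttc

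The pair of *NEXN* probes is shown because the windows lie end to end with no shared base, while 1 of them passed the fold limit and the other did not:
*NEXN* brighter probe, chr5:58017993-58018052, minus strand: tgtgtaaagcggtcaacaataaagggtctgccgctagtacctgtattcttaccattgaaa
*NEXN* dimmer probe, chr5:58018053-58018112, minus strand: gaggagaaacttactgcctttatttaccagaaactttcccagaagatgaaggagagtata

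The probes of *CSRP3* and *SMPX* are shown because they are near-copies of a single window. All 5 *CSRP3* probes share 56 bases and all 10 *SMPX* probes share 45 bases, in capitals, so that neither set is a set of independent measurements:
*CSRP3* brightest probe, chr7:74901617-74903162, minus strand: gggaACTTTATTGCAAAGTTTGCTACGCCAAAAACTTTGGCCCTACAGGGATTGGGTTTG
*SMPX* outermost probe, chrX:10349708-10349767, minus strand: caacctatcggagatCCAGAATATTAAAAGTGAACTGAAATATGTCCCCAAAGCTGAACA

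The *ANKRD2* probe is shown because it was found by its description alone. Its 60 bases are spread over 865 bases of EquCab1 and the *CSRP3* probe over 1546 bases, so both windows are interrupted in the genome:
*ANKRD2* probe, chr1:31032846-31033710, minus strand: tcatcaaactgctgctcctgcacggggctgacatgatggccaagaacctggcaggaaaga

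The 5 *ABRA* probes, on chromosome 9 between bases 46647940 and 46648008, likewise share 51 bases. No stretch of 20 bases from any of the 30 probes was found in a probe of another gene. Gene names were those of the array files, and EquCab1 gene models were not used here.

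The signals of the labelled cell type were examined first. Of 7 satellite cell markers on the array, 5 were well above background on all 4 arrays in control and 4 in GO-treated cells. *CD34* was so on none, and *PAX7* and *CDH15* had no named probe. Of 16 markers of differentiated muscle, 15 were well above background on all 4 arrays in control and 13 in GO-treated cells. Of 8 markers of smooth muscle and pericytes, 7 were so in control and 6 in GO-treated cells. All 9 fibroblast markers were also well above background in both channels on all arrays. None of the 6 endothelial markers was well above background in either channel on any array. Of 6 leukocyte markers, *CD14* and *CD68* were well above background in both channels on all 4 arrays, *CSF1R* on 1 array in each channel, and *CD3E*, *ITGAM* and *LYZ* on none. Of 4 adipocyte markers, *PPARG* was well above background on 2 control and 1 GO arrays and *ADIPOQ*, *FABP4* and *LEP* on none. The summed signal of the leukocyte list was 4229 to 5043 in control and 4467 to 5318 in GO-treated cells. The share of noncontrol probes well above background ran from 63.5% to 68.9% for control cells and from 57.4% to 67% for GO-treated cells. Of all probes tested, 8.94% passed an adjusted p of at most 0.05 (limma, Benjamini-Hochberg) together with a fold change of at least 1.3.

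Of the 10 genes, 7 were lower in GO-treated than in control cells on all 4 arrays by the brightest probe of each, where 21% of all tested genes were. *ABRA*, *ANKRD1*, *ANKRD2* and *ITGB1BP2* passed both thresholds as lower, 4 of 10 genes beside 5.38% of all tested genes (8.68% in either direction), and 0 passed as higher. For 6 genes every GO signal lay below every control signal, beside 4.87% of all tested genes, and the same held for 16 of the 29 tested probes, beside 5.39% of all probes. Since this same contrast was used to choose the genes, nothing is read from these shares. By probe, 26 of the 29 tested were lower on all 4 arrays, beside 21.5% of all probes, 10 of them passed both thresholds as lower, beside 5.61% of all probes, and 20 passed the adjusted p alone with a lower signal, beside 9.82%. With the channels taken as 8 separate samples in place of ratios within an array, 6 probes passed. The median log2 ratio over the 10 genes was -0.46 ± 0.06 (SD, n = 4 arrays), with single genes from -0.68 to 0.15, while the median over all tested genes was 0.002. Of the 29 tested probes, 0 were higher at an unadjusted p of at most 0.05 (limma). The plain one-sample test gave 0 past both thresholds as higher and 8 as lower.

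**Figure D1:**
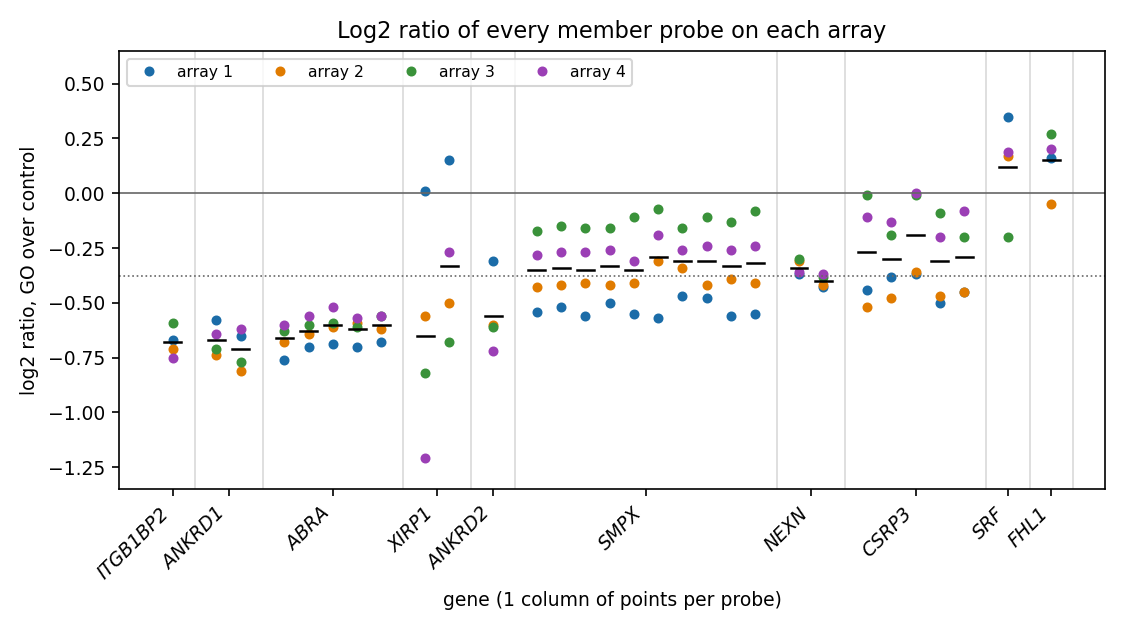
The log2 ratio of GO over control cells (vertical axis) is plotted for each of the 30 probes on each of 4 arrays (colored points), with 1 column of points per probe, the black bar at the mean, the solid line at 0 and the dotted line at the fold limit of 1.3 for lower signals. Points of *ABRA*, *ANKRD1* and *ITGB1BP2* lie below the dotted line on every array, arrays 1 and 2 lie below arrays 3 and 4 in all probes of *SMPX* and *CSRP3*, and *SRF* and *FHL1* lie around or above 0.

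Of the regulators, *ABRA* encodes the actin-binding activator of SRF described above. The processed signal of its brightest probe, in the arbitrary units of the scanner, was 8126, 7594, 7926 and 6763 in control cells on arrays 1 to 4. In GO-treated cells it was 4800, 4748, 5130 and 4477. Every GO signal thus lay below every control signal, and the ratio was nearly the same on each array: the log2 ratios were -0.76, -0.68, -0.63 and -0.60, a mean of -0.66 ± 0.07 (SD, n = 4) or 1.59-fold lower. The means of the 5 probes ran from -0.66 to -0.60, and all 5 passed both thresholds. The SD between these probes on an array was 0.03, against 0.06 between arrays, so the overlapping windows repeated the measurement closely.

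SRF itself did not share this pattern. Its probe on chromosome 20 was dim, with control signals of 76.3, 118, 129 and 83.3. The GO signals were 97.0, 133, 112 and 94.7. The ranges overlapped, and the log2 ratio was above 0 on arrays 1, 2 and 4 (0.35, 0.17 and 0.19) and below 0 on array 3 (-0.20), a mean of 0.12 ± 0.23 (SD, n = 4). The control signal was 4.02 to 6.27 times its local background, so a change of *SRF* messenger RNA smaller than this spread was not detectable here.

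*FHL1*, a LIM domain protein of the sarcomere and of the stretch response, gave control signals of 492, 622, 421 and 408. Its GO signals were 549, 601, 509 and 468. The groups overlapped, GO being higher on arrays 1, 3 and 4 and lower on array 2, and the mean log2 ratio of 0.15 ± 0.14 (SD, n = 4) was the highest of the 10 genes.

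*ITGB1BP2* encodes melusin, a chaperone-like protein that binds the tail of beta-1 integrin at the costamere, where the Z-disc is tied to the cell membrane. Its only probe, not placed on a chromosome of EquCab1, gave control signals of 1646, 1394, 1305 and 1231. The GO signals were 1035, 852, 866 and 734. No GO signal reached the lowest control signal, and array 1 was the brightest in both channels. The log2 ratios were -0.67, -0.71, -0.59 and -0.75, and their mean of -0.68 ± 0.07 (SD, n = 4), or 1.6-fold lower, was the lowest of the 10 genes. Of all tested probes, 1.83% had a mean ratio as low.

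Among the ankyrin repeat proteins, which sit in the I-band on titin and also enter the nucleus, *ANKRD1* is the cardiac relative and a known responder to load. The brightest *ANKRD1* probe gave control signals of 31773, 35220, 35016 and 32357. The GO signals were 21278, 21092, 21355 and 20813, close to each other and all far below the control range. The log2 ratios of -0.58, -0.74, -0.71 and -0.64 averaged -0.67 ± 0.07 (SD, n = 4), or 1.59-fold lower. The overlapping probe shown above gave -0.71 ± 0.09, and both passed both thresholds. With each array centered on its median and no lowess step, the mean was -0.31, still below 0, and it no longer passed. In the same setting *GAPDH*, a glycolytic enzyme often used as a reference, moved from -0.04 to 0.89.

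*ANKRD2*, the skeletal muscle relative that was first described as stretch-responsive, gave control signals of 732, 914, 776 and 711. The GO signals were 590, 604, 510 and 432. All 4 GO signals lay below the control signals, but the ratio was less even than for *ANKRD1*: the log2 ratios were -0.31, -0.60, -0.61 and -0.72, with array 1 the least changed, and gave a mean of -0.56 ± 0.17 (SD, n = 4) or 1.47-fold lower. It passed both thresholds, though not with dim probes kept in the test, with the plain one-sample test, or with the channels as separate samples.

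**Figure D2:**
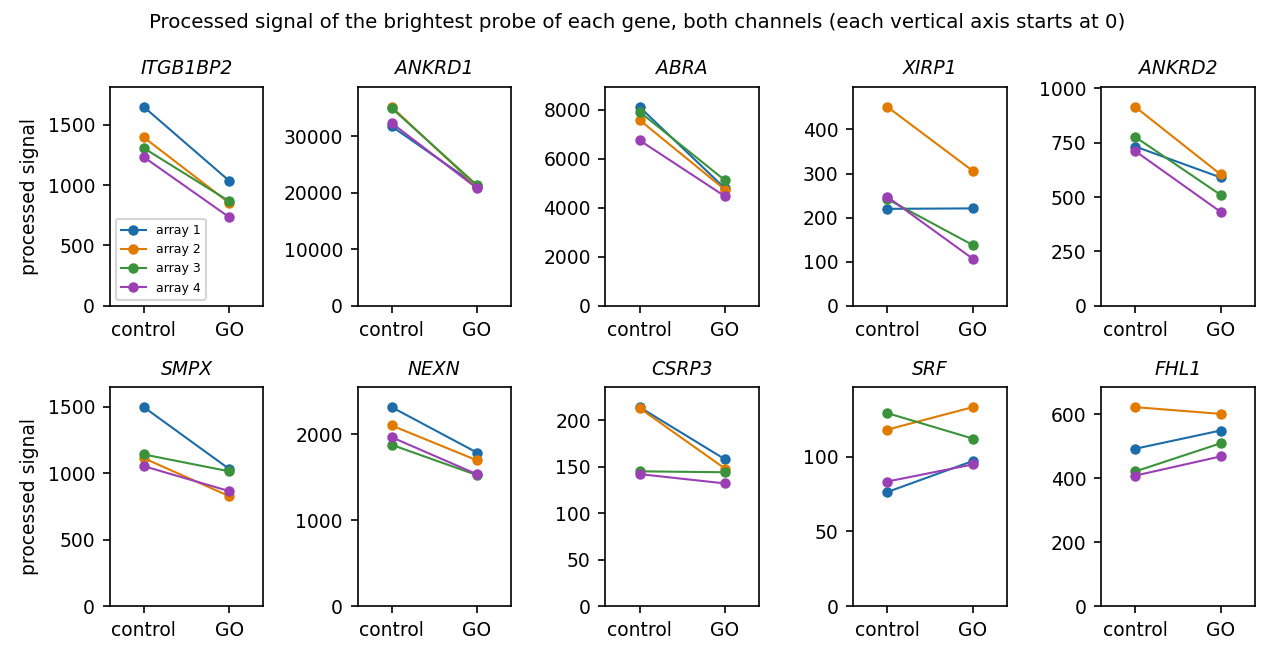
The processed signal (vertical axes, arbitrary scanner units, each starting at 0) of the brightest probe of each gene is plotted in the control and the GO channel, with 1 line per array. All GO signals lie below all control signals for 6 genes, *ITGB1BP2*, *ANKRD1*, *ABRA*, *ANKRD2*, *SMPX* and *NEXN*, while the lines cross or run flat for *XIRP1* on array 1, *CSRP3* on array 3, *SRF* and *FHL1*.

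Among genes of the Z-disc and its actin filaments, *NEXN* encodes nexilin, which binds filamentous actin and stabilizes the Z-disc. The brighter of its probes gave control signals of 2315, 2102, 1877 and 1965. The GO signals were 1786, 1696, 1524 and 1534, all below the control range. The log2 ratios were -0.37, -0.31, -0.30 and -0.36, the most even of the 10 genes at -0.34 ± 0.04 (SD, n = 4), or 1.26-fold lower, just short of the fold limit. The neighboring window gave -0.40 ± 0.03, or 1.32-fold lower, and passed both thresholds, so that the count of genes with a passing probe is 5 where the brightest probe gives 4. On that window the GO signals, from 1236 to 1687, overlapped the control signals, from 1651 to 2277, although the ratio was below 0 within every array.

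*CSRP3* encodes muscle LIM protein, a Z-disc protein that also acts with muscle transcription factors. Its brightest probe gave control signals of 214, 213, 145 and 142 and GO signals of 158, 148, 144 and 132. The arrays fell into pairs: the log2 ratio was -0.44 and -0.52 on arrays 1 and 2, and -0.01 and -0.11 on arrays 3 and 4. The mean was -0.27 ± 0.25 (SD, n = 4), and the ranges of the channels overlapped. The mean over the 5 probes was -0.43, -0.46, -0.10 and -0.10 on the 4 arrays, with an SD between probes of at most 0.09 on an array, so the split was one between arrays and not between probes. Of the 5 probes 0 passed both thresholds and 1 passed the adjusted p alone.

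*SMPX* encodes a small muscle protein of the costamere that was found to respond to passive stretch. Its brightest probe gave control signals of 1498, 1114, 1142 and 1054 and GO signals of 1033, 828, 1015 and 866, with no overlap. On some of the other probes the channels overlapped. On the outermost probe, shown above, GO signals ran from 623 to 859 and control signals from 774 to 1160. The log2 ratio of the brightest probe was lower on arrays 1 and 2 (-0.54 and -0.43) than on arrays 3 and 4 (-0.17 and -0.28), the same division as for *CSRP3*. It averaged -0.35 ± 0.16 (SD, n = 4) or 1.28-fold lower. The 10 probes averaged -0.53, -0.40, -0.13 and -0.26 on arrays 1 to 4, with an SD between probes of 0.03 to 0.04 on an array against 0.17 between arrays. Of these probes 0 passed both thresholds and 8 passed the adjusted p alone. Without array 3 the brightest probe averaged -0.42 and passed both.

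*XIRP1* encodes Xin, an actin-bundling repeat protein of cell junctions and of muscle under repair. Its brighter probe, on chromosome 16, gave control signals of 220, 451, 242 and 247 and GO signals of 221, 306, 138 and 107. The log2 ratio was 0.01 on array 1, -0.56 on array 2, -0.82 on array 3 and -1.21 on array 4. The mean of -0.65 ± 0.51 (SD, n = 4) was thus nearly as low as that of *ABRA*, but with the widest spread of the 10 genes, and it did not pass the test. It passed both thresholds in 5 of 12 alternative tests: without array 1, where the mean was -0.86, with array weights, without lowess, with normexp correction and loess, and with probes required to be well above background in both channels. The dimmer probe, 1836 bases away, was well above background on 3 control and 2 GO arrays and was left out of the test, with log2 ratios of 0.15, -0.50, -0.68 and -0.27.

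The genes therefore differed in how evenly the 4 arrays carried their ratio. *ABRA*, *ANKRD1*, *ITGB1BP2* and *NEXN* had SDs of 0.04 to 0.07 between arrays. *SMPX*, *ANKRD2*, *CSRP3* and *XIRP1* had SDs of 0.16 to 0.51, and their arrays were not in the same order. Array 1 was among the lowest for *SMPX* and *CSRP3* and the highest for *ANKRD2* and *XIRP1*. The order of the means put *ITGB1BP2*, *ANKRD1*, *ABRA* and *XIRP1* within 0.03 of each other, which is less than the SD of any of them. *ANKRD2* came next, then *SMPX* and *NEXN*, whose means differed by less than their SDs, then *CSRP3*.

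**Figure D3:**
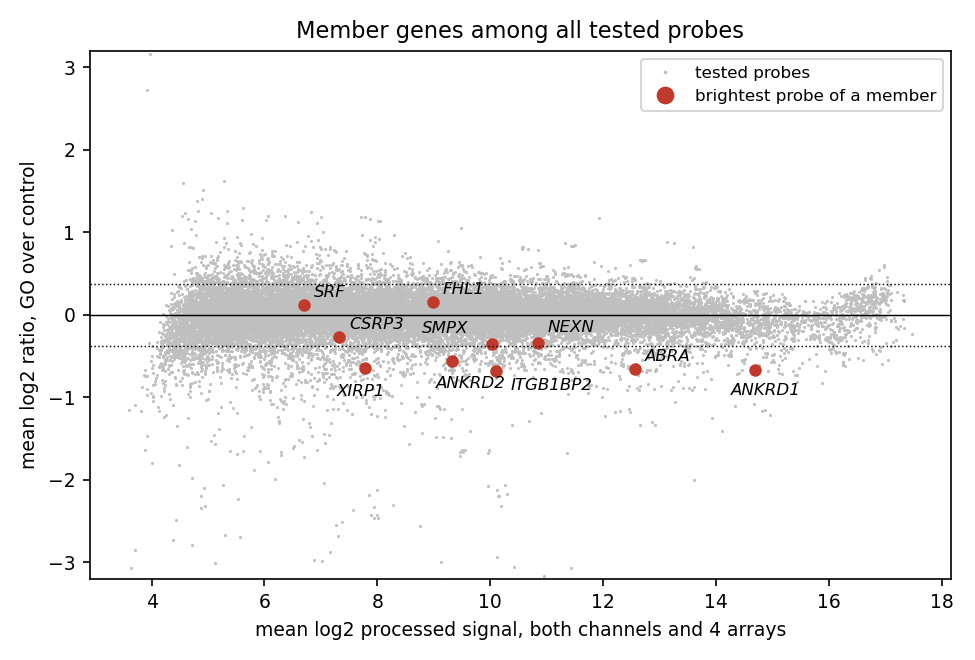
The mean log2 ratio (vertical axis) of the 26833 tested probes (gray) is plotted against their mean log2 signal over both channels and 4 arrays, with the brightest probe of each of the 10 genes in red, solid line at 0 and dotted lines at the fold limit of 1.3 in either direction. The genes with the lowest ratios span the range of brightness from *XIRP1* to *ANKRD1*, and 6 probes lie beyond the vertical limits of 3.2.

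Other genes of the same structures and target genes of SRF are given beside these, by the brightest tested probe of each, from lists that were likewise drawn up with earlier results known. Of 31 tested target genes of SRF, 2 passed as lower and 2 as higher, beside 5.38% and 3.3% of all tested genes, and the median log2 ratio was 0.05. *ACTA1*, the skeletal muscle actin, was lower at -0.64 ± 0.22, and *ACTG2*, the enteric smooth muscle actin, at -0.47 ± 0.05 (SD, n = 4). Without lowess the means were -0.08 and 0.30, neither of which passed, and the sign of *ACTG2* turned. *EGR1*, an immediate-early transcription factor, was higher at 1.17 ± 0.28, and *IER2*, another immediate-early gene, at 0.43 ± 0.28 (SD, n = 4). *EGR1* stayed past both thresholds with the 2 other ways of scaling, at 1.12 and 1.26, and *IER2* had 0.18 with normexp correction and loess, where it did not pass. Without lowess 10 of the 31 passed as higher and 0 as lower, with a median of 0.27. In that setting 1740 probes of the whole array passed as higher, against 894 of 26833 with lowess, and *GAPDH* moved from -0.04 to 0.89. The share of all genes without lowess was not computed, so nothing is read from the 10.

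Of 15 tested paralogs of the 10 genes and their partners in the Z-disc, 3 passed as lower and 0 as higher. Over all tested genes these shares were 5.38% and 3.3%. The median log2 ratio of the list was -0.14, and it was -0.03 without lowess. At an unadjusted p of at most 0.05, 7 of the 15 were lower and 2 higher (limma), while the plain one-sample test gave 0 in either direction. *ACTN3*, the alpha-actinin of fast fibers, had -0.59 ± 0.22, *PDLIM3*, a PDZ and LIM protein that binds alpha-actinin, -0.50 ± 0.07, and *XIRP2*, the paralog of *XIRP1*, -0.47 ± 0.07 (SD, n = 4). With normexp correction and loess *XIRP2* had -0.25 and did not pass. The median over 16 tested genes of integrin and stretch signaling was -0.04. Of the 16, 2 passed as lower, beside 5.38% of all tested genes, and 0 as higher. These were *RCAN1*, a regulator of calcineurin that is also its target, at -0.41 ± 0.20, and *TEAD4*, the partner of YAP on DNA, at -0.40 ± 0.23 (SD, n = 4). *RCAN1* had -0.17 with normexp correction and loess and *TEAD4* had -0.35 without lowess, and neither passed there. At an unadjusted p of at most 0.05, 5 of these 16 were lower and 2 higher (limma), and the plain one-sample test gave 0 in either direction. The share of all tested genes at that unadjusted p was not computed, so nothing is read from the unadjusted counts of either list.

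**Figure D4:**
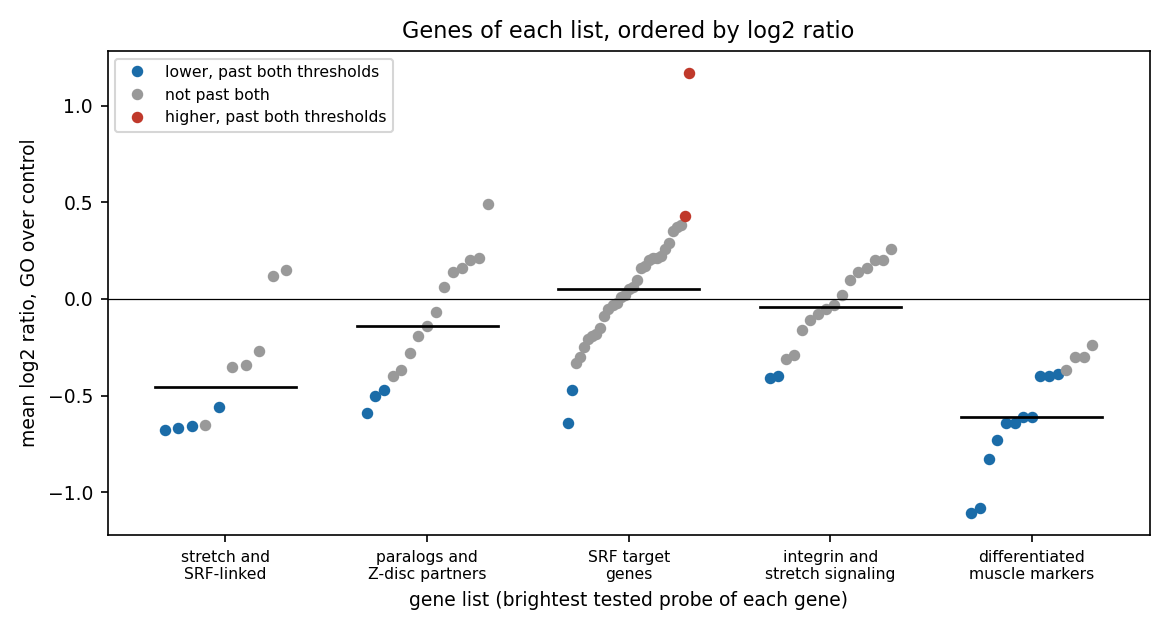
The mean log2 ratio over 4 arrays (vertical axis) of each tested gene is plotted in order within 5 lists, with the black bar at the median of a list and color for genes past both thresholds (blue lower, red higher). The 10 stretch and SRF-linked genes and the markers of differentiated muscle have medians of -0.46 and -0.61, whereas the medians of the other 3 lists lie between -0.14 and 0.05.

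The markers of differentiated muscle also had a median log2 ratio below 0, and the order of the arrays differed between genes within both lists. Among the markers, array 1 had the ratio nearest 0 for *ACTA1* (-0.34) and *DES* (-0.26) and the lowest for *MYH2* (-1.52) and *MYH8* (-1.63). Among the 10 genes, array 1 was nearest 0 for *ANKRD1* (-0.58) and *ANKRD2* (-0.31) and the lowest for *ABRA* (-0.76) and *SMPX* (-0.54). Of 15 tested markers 11 passed as lower, beside 5.38% of all tested genes, and 0 as higher, all 15 had a mean log2 ratio below 0, and the median was -0.61. *MYH2*, *MYH8* and *MYH3*, which encode fast, perinatal and embryonic myosin heavy chains, had -1.11 ± 0.33, -1.08 ± 0.43 and -0.83 ± 0.19 (SD, n = 4). With normexp correction and loess the means were -0.39, -0.83 and -0.60, all past both thresholds. Without lowess they were -1.23, -1.07 and -0.15, and *MYH3* did not pass. The summed processed signal of the list, taken after lowess, was 264441 to 348448 in control and 162412 to 217100 in GO-treated cells, with no overlap. *MYH2* and *MB* were well above background on 4 control but 3 GO arrays. They were thus tested through the control channel alone, which favors a lower ratio. With probes required to be well above background in both channels the count was 10. The count was 3 without lowess, where all 15 were still below 0 and the median was -0.27, 3 with the channels as separate samples, and 0 with the plain one-sample test. Of 6 tested satellite cell markers, 3 passed as lower, beside 5.38% of all tested genes, and 0 as higher. They were *CXCR4* at -1.12 ± 0.34, *MYF5* at -0.93 ± 0.04 and *NCAM1* at -0.63 ± 0.22. With normexp correction and loess *CXCR4* had -0.21 and did not pass. A brighter *CXCR4* probe had -0.73, but was well above background on 3 control and 1 GO arrays only and was left out of the test. The summed signal of that list was 8767 to 10636 in control and 6747 to 7545 in GO-treated cells.

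Of 9 tested fibroblast markers 1 passed as higher, *PDGFRA* at 0.87 ± 0.48 (SD, n = 4), which had 0.37 and did not pass with normexp correction and loess. Their summed signals overlapped, at 321847 to 494851 in control and 336344 to 451369 in GO-treated cells. Without lowess 5 of the 9 passed as higher, in a setting where 1740 probes of the whole array did, against 894 with lowess. The share of all genes in that setting was not computed, so nothing is read from the 5. Of 7 tested markers of smooth muscle and pericytes, 0 passed in either direction and 0 did at an unadjusted p of at most 0.05 (limma), with overlapping sums of 39258 to 62822 and 42429 to 57019. Of 2 tested leukocyte markers 0 passed, although 1 was lower at an unadjusted p of at most 0.05, and the plain one-sample test gave 0 past both thresholds in all 3 of these lists. The part of these markers in the ratios of the 10 genes was not tested. In RNA from whole cultures, fewer differentiated cells and less RNA of these genes in each cell cannot be told apart.

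The genes nearest to *ABRA* over the 4 arrays, by the root mean square difference of the log2 ratios among 9503 other symbols, were *TNIK* at 0.051, *CAMTA1* at 0.053 and *PLA1A* at 0.059, with means of -0.62, -0.71 and -0.70. Those nearest to *ITGB1BP2* were *ASB5* at 0.046, *TCEAL7* at 0.046 and *TMEM108* at 0.070, with means of -0.65, -0.66 and -0.69. Within a difference of 0.1 there were 10 symbols for each.

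**Figure D5:**
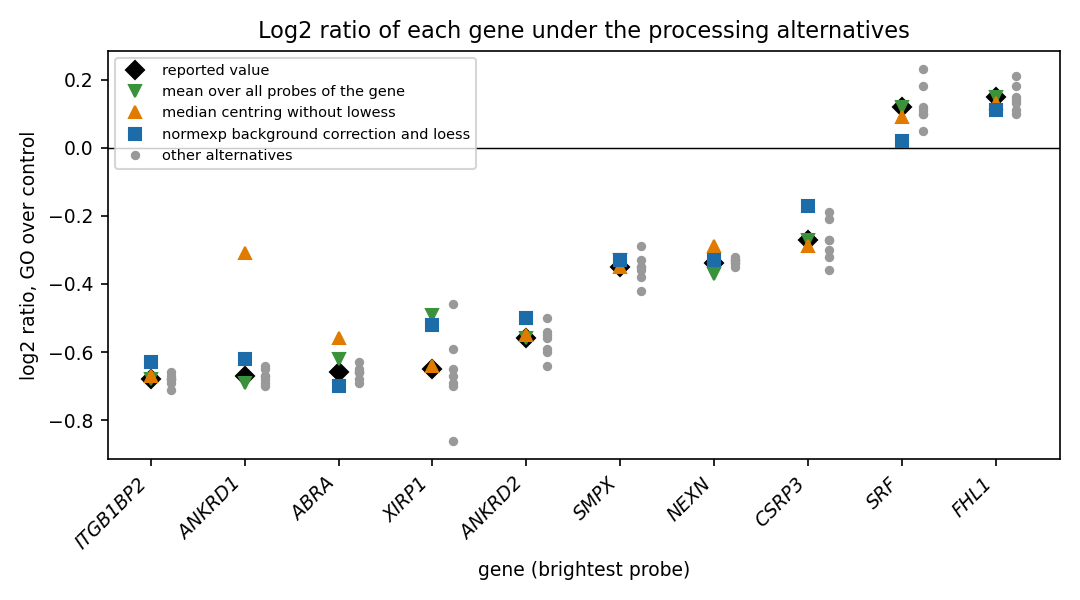
The log2 ratio of the brightest probe of each gene (vertical axis, mean over arrays) is plotted as reported (black) and under the processing alternatives (colored and gray symbols), with the line at 0. No gene crosses 0, *ANKRD1* moves most, from -0.67 to -0.31 without lowess, and *XIRP1* ranges from -0.86 to -0.46.

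The sign of the mean ratio was the same for each of the 10 genes in every alternative computed, 8 below 0 and 2 above. *ABRA* and *ITGB1BP2* passed in all 12 alternative tests, 1 of which had the adjusted p alone and no fold limit. *ANKRD1* passed in 11, *ANKRD2* in 9, *XIRP1* in 5, *SMPX* in 2 and *NEXN* in 1, whereas *CSRP3*, *SRF* and *FHL1* passed in none. The only pass of *NEXN*, and 1 of the 2 of *SMPX*, came from the test with no fold limit. Their ranges were -0.70 to -0.56 for *ABRA*, -0.71 to -0.63 for *ITGB1BP2* and -0.64 to -0.50 for *ANKRD2*.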

How the data were processed

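RNA of GO-treated and control cells was measured on 4 two-color Agilent horse arrays. The authors scanned them with Feature Extraction, given as 10.10.1.1 in the file headers and as another version in the methods. The deposited intensity values are raw, background-subtracted and processed signals of each channel, the last after detrending and dye normalization (linear, then lowess). The authors deposited log10 ratios of processed Cy5 over Cy3 signal, which were multiplied here by log2 of 10. The authors' table of the series, on the log10 scale, held the same values (180880 of 180880 equal within 1e-06). The 1417 control spots and spots marked as outliers were left out, the spots of 50 repeated probes were averaged, and 26833 of 43603 probes were tested, those well above background in either channel on all 4 arrays. The log2 ratios were tested against 0 with limma (version 3.58.1, lmFit and eBayes, two-sided) in R (version 4.3.3) with data.table (version 1.17.8), after Benjamini-Hochberg adjustment over all tested probes. The thresholds of the methods were used, 0.05 for the adjusted p and 1.3 for the fold change (0.38 on the log2 scale). The methods name GeneSpring, for which limma was used instead. The test was tried on simulated data with known changes.

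The brightest probe by mean log2 signal over both channels stood for a gene. The 10 genes and all gene and marker lists were chosen with earlier results of these data known. The genes named were all 10 members, the 3 symbols nearest to *ABRA* and to *ITGB1BP2*, and up to 3 passing genes per list and direction. The result of 1 gene list is not reported here. The leukocyte and adipocyte markers were named after their signals were seen. Symbols came from the array files for 24962 probes and from RefSeq gene names (assembly TB-T2T) for 1684 by gene number and 436 by accession. The ratio within an array pairs the channels. All 4 arrays were on 1 slide, so no batch could be compared. Alternatives were normexp correction (offset 50) with loess, median centering without lowess, other filters on dim probes, a plain one-sample test, array weights, no replicate block, the mean over probes, no fold limit, and leaving out each array. The use of the 7 genes found by name alone was added after the data were seen.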

Additional observations from a re-analysis of the deposited data

Results flagged for a closer look

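Control signals of 4 of the 30 probes held 1 array that stood apart from the other 3, where the gap to the nearest array took more of the whole range, on the log2 scale, than Dixon's limit allows for 4 values. For log2 ratios 0 of the 30 probes did so. Chance alone gives about 1 such probe in 20 (a share of 0.05), and the *SMPX* probes share most of their bases. Array 1 stood high for 3 *SMPX* probes. Their control signals were 1292 on array 1 against 1073, 1035 and 1048 on the others, 1254 against 973, 986 and 958, and 901 against 682, 693 and 675. The log2 ratios of these probes on array 1 were -0.50, -0.55 and -0.55, the lowest of the 4 arrays for each. Array 2 stood high for the brighter *XIRP1* probe, with a control signal of 451 against 220, 242 and 247, and its GO signal of 306 was also the highest of the 4 arrays.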

How the results depend on the processing

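The counts past both thresholds depended on the processing more than the ratios of the 10 genes did. Over all probes, 1505 were lower and 894 higher. These counts were 816 and 481 with normexp correction and loess, 624 and 284 with dim probes kept, 118 and 29 with the plain one-sample test, and 304 and 66 with no replicate block, that is, with the pairing of channels within an array dropped. Without lowess 1740 were higher. Leaving out each array gave 1049 to 1436 lower and 509 to 994 higher, with 517 higher without array 2 and 509 without array 3. The share of lower probes among those that passed was 62.7%, and it was 48.7% without lowess, 80.3% with the plain test and 82.2% without the block.

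The count of member probes past both thresholds as lower was 10, and it was 6 without the block and 20 with no fold limit. The median over the members was -0.46, and it was -0.33 without lowess and -0.65 over the 7 genes found by name alone, an alternative chosen after seeing the data. Single ratios that moved by more than their SD were *ABRA* (-0.56), *ANKRD1* (-0.31) and *NEXN* (-0.29), all without lowess. The filters on dim probes and the plain test leave these means as they are.

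Over the 3 other gene lists, 7 genes were lower and 2 higher. The counts were 4 and 11 without lowess, 3 and 1 with dim probes kept, 0 and 1 without the block, 4 and 1 with normexp correction and loess, and 1 and 0 with the plain test, and array weights gave 1 higher. Leaving out each array gave 4 to 10 lower and 1 to 2 higher, with 4 lower without array 2 and 1 higher without array 2 or array 3. Of the differentiated muscle markers 11 were lower, 3 without lowess, 5 with dim probes kept, 3 without the block and 0 with the plain test. The causes were not tested. The control signal of *SRF* was 4.02 to 6.27 times its background.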
